A study of Homo sapiens with 16 samples.

Results

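CD59, CD55 and CD46 are the membrane complement inhibitors described here, in Nalm6, a human line of acute lymphoblastic leukaemia of the B-cell precursor type. They were read from every probe set whose platform annotation names one of these genes and no other gene, and the probe set brightest on average over the 16 arrays stands for its gene. This gave 24 of 44988 single-gene probe sets, of which 5 belong to CD59, 7 to CD55 and 12 to CD46, and 3 of 18132 genes. No probe set named a member beside another gene. The representing probe sets were chosen by mean log2 signal alone, so brightness is a description here and no result; for CD59 the chosen one averaged 5.28 and the next, 11718101_at, 5.27.

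Per the labels, the series holds 4 groups of 4 arrays, each of Affymetrix PrimeView type and total RNA. They are Nalm6 cells said to overexpress active CASP1, given prednisolone for 24 hours or left untreated, and control Nalm6 cells, given prednisolone for 24 hours or left untreated. Prednisolone is a synthetic glucocorticoid used against this leukaemia, spelled as a form of prednisone in some labels, at a dose that the labels leave out. RPMI1640 with serum and glutamine was the medium for all groups. How the CASP1 line was made, from how many clones, under which promoter, and what the control line carries is not stated in the labels. Nothing in the labels says that replicates came from separate cultures; the p-values thus reflect the spread of these arrays, which may be technical.

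Complement is a cascade of plasma proteins that coats a surface with C3b and ends in a pore, the membrane attack complex. Host cells carry inhibitors against it. CD55, or decay-accelerating factor, takes apart the convertases that cleave C3 and C5; CD46, or membrane cofactor protein, helps factor I to cut C3b and C4b; and CD59 binds C8 and C9 and keeps C9 from completing the pore. CD55 and CD59 are held by a glycosylphosphatidylinositol (GPI) anchor, while CD46 spans the membrane. On B-lineage cells these proteins are known for limiting the killing by therapeutic antibodies that work through complement.

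The promoters are shown because CD59 differed between the lines and CD55 between treatments in the values that follow. Each run is the RefSeq stretch of 300 bases around the first listed start of the gene (assembly GRCh38.p14), printed 5′ to 3′ along the gene. CD59 lies on the minus strand at chr11:33736430-33736729, CD55 on the plus strand at chr1:207321428-207321727, and CD46 on the plus strand at chr1:207751788-207752087. Capitals mark GGGCGG, the letters of a GC box, and AGAACA, one arm of a glucocorticoid response element, each searched on both strands (CCGCCC and TGTTCT are the other strand's reading).
CD59: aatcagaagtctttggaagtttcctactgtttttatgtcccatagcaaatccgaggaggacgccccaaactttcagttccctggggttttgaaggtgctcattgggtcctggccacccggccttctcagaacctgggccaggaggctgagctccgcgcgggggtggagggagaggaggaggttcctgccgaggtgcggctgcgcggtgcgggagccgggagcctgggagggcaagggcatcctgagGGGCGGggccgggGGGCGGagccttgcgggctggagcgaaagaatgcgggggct
CD55: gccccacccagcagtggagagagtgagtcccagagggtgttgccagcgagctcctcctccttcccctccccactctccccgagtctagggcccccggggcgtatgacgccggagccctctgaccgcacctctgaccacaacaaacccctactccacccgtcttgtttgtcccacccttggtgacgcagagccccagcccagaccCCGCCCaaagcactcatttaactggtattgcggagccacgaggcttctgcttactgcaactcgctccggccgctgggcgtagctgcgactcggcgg
CD46: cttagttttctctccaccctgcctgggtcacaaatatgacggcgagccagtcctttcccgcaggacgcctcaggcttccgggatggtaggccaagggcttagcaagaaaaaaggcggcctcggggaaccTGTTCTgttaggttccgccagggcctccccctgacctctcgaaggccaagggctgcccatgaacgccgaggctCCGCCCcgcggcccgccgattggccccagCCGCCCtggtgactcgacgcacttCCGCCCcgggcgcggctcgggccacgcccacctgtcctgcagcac
GGGCGG stood 2 times in the CD59 window, once in that of CD55 and 3 times in that of CD46, against at least once in 44.95% of 35116 such windows. AGAACA stood once in the CD46 window, in neither of the others, and in 14.79% of all windows. The CD59 window held 18 CpG pairs, that of CD55 19 and that of CD46 25. RefSeq lists 3 further start windows for CD59. The one that overlaps the window shown had 22 CpG pairs and GGGCGG 2 times, and both others, downstream, had 1 CpG each and neither short motif.

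The arrays were alike in scale, with medians between 4.85 and 4.93 on the log2 scale and correlations within groups between 0.983 and 0.997, and the first replicate was the least like the others in 4 of 4 groups. The brightest of 9 CASP1 probe sets stood for that gene, and its other probe sets were not examined one by one. By that probe set, CASP1 signal was lower, not higher, in the cells labelled CASP1 (limma log2 difference −2.06 untreated and −1.93 with prednisolone). Every direction between the lines thus rests on labels that the signal of this CASP1 probe set goes against. Its arrays read 4.79 to 5.38 with prednisolone and 5.45 to 6.05 untreated in the cells labelled CASP1, against 6.86 to 7.08 with prednisolone and 7.60 to 7.95 untreated in control cells. The glucocorticoid-induced TSC22D3 was 5.79 log2 units higher with prednisolone in the cells labelled CASP1 and 4.70 higher in control cells. FKBP5, another receptor target, was 2.80 higher in the cells labelled CASP1 and 2.42 higher in control cells, and NR3C1, the receptor itself, 0.85 higher in the cells labelled CASP1 and 1.24 higher in control cells. Of the B-cell precursor list 13 genes were measured, with a median level of 11.94 over the 16 arrays, and of its defining markers VPREB1 averaged 12.75, PAX5 8.48 and CD79A, the lowest of the list, 6.69. Median gene levels of the lists for T and NK cells, monocytes, erythroid cells, platelets and stroma lay between 3.35 and 4.24. The highest gene of these lists was CD7 of the T and NK list, at 6.61. All these levels come from different probe sets and describe the arrays only.

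CD59 signal was higher in the cells labelled CASP1 than in control cells, whether or not prednisolone was given. Signals are log2 values normalized by robust multi-array averaging (RMA), so levels of different probe sets cannot be set against each other. In untreated cells its brightest probe set, 11718100_s_at, read 6.77, 6.41, 6.77 and 6.78 log2 units in the cells labelled CASP1, against 3.92, 4.01, 3.39 and 3.98 in control cells. With prednisolone it read 5.90, 6.88, 6.94 and 6.61 in the cells labelled CASP1, against 4.36, 3.63, 4.0 and 4.13 in control cells. All 8 arrays of the cells labelled CASP1 lay above all 8 control arrays. The lowest of them was the first replicate with prednisolone.

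The untreated means were 6.68 ± 0.18 in the cells labelled CASP1 and 3.83 ± 0.29 in control cells (SD, n = 4 each). A gene or probe set is called here at an adjusted p under 0.05 from limma, fitted over all 16 arrays and adjusted over all genes or all single-gene probe sets. The difference was 2.86 log2 units (95% interval 2.43 to 3.28; limma adjusted p = 7.6e-08 over all genes), a ratio of 7.24 between the signals. With prednisolone the means were 6.58 ± 0.48 in the cells labelled CASP1 and 4.03 ± 0.31 in control cells, a difference of 2.55 (95% interval 2.12 to 2.98; adjusted p = 2.5e-07) and a signal ratio of 5.86. The deposited table holds no detection call, and the control signal is not shown to lie above background. Whether CD59 RNA was present in control cells was therefore not determined, and these ratios of signals are no measure of the fold in RNA, which they may understate. CD59 was the 1 member of 3 called in either comparison. Of all genes, 14.1% were called in untreated cells and 5.87% were called higher there, while 9.89% had groups that did not overlap with the cells labelled CASP1 above. With prednisolone these shares were 16.4%, 7.88% and 10.1%. The members were chosen with earlier results of these data known, so these p-values are not independent evidence.

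The probe sets of CD59 did not all show this. Of 5 probe sets, 3 were called higher in both line comparisons and had groups that did not overlap, against 5% of all single-gene probe sets called higher in untreated cells and 6.53% with prednisolone. Groups that did not overlap in that direction were found for 8.58% and 8.76% of them. Probe set 11718101_at differed by 2.82 and 2.88 log2 units and 11757306_s_at by 2.51 and 1.75. The remaining 2, 11718102_at and 11763244_at, had group means between 2.33 and 2.82 in every group and differences between 0.00 and 0.11. Averaging all 5 probe sets therefore gave 1.65 in untreated cells and 1.46 with prednisolone, over 1.5 times smaller, both still called.

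In these bulk samples, fewer cells with CD59 RNA and less of it per cell cannot be told apart. Between the lines, the marker lists of T and NK cells (12 genes), monocytes (10), erythroid cells (5), platelets (6) and endothelium and stroma (8) had 0 genes called in untreated cells by limma and none at an unadjusted p under 0.05. With prednisolone ITGAM of the monocyte list was called, at 0.37, a call lost in 7 of 8 fits that left out 1 array. In the endothelium and stroma list 3 of 8 genes then had an unadjusted p under 0.05, none of them called, and the median difference was 0.11, against 0.04 over all genes. The summed linear signal of that list was 137 to 152 in the cells labelled CASP1 and 120 to 137 in control cells with prednisolone, and 125 to 143 against 124 to 135 in untreated cells. The part of these markers in the CD59 difference was not tested.

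**Figure D1:**
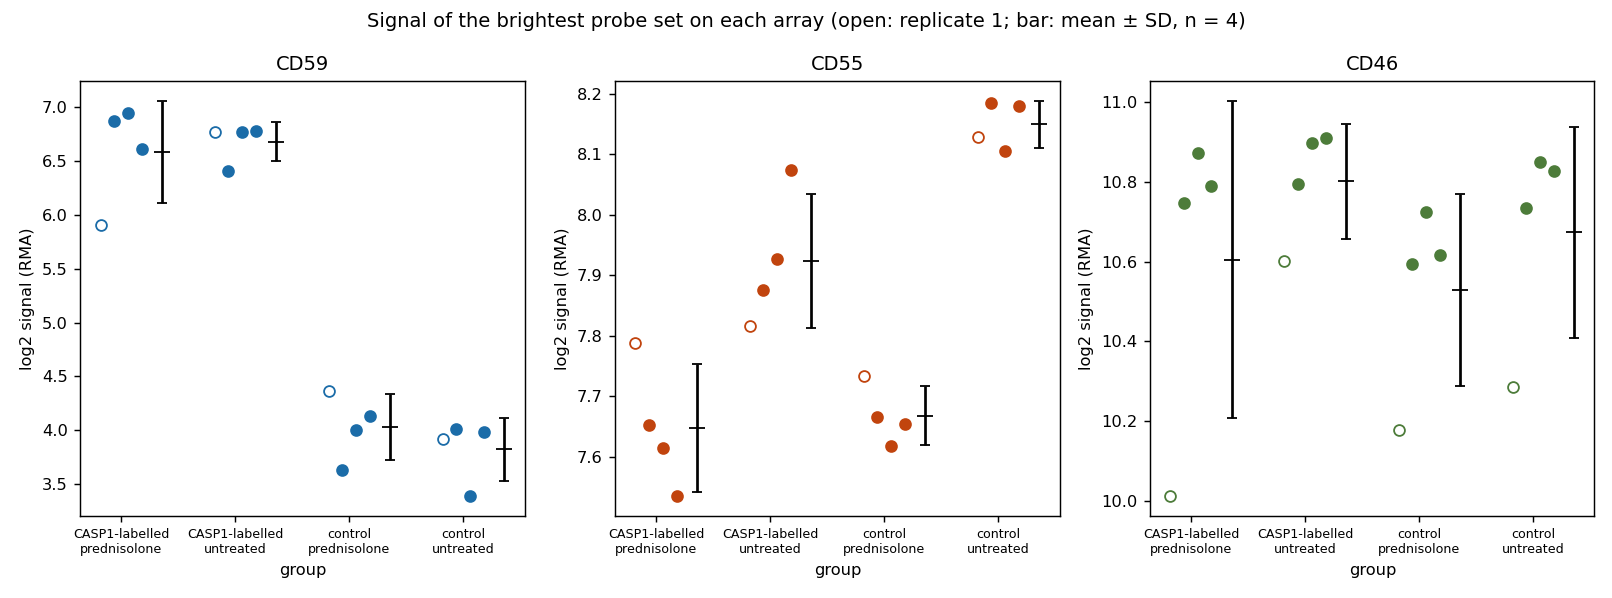
Log2 signal (RMA) of the brightest probe set of CD59, CD55 and CD46 on each of the 16 arrays, by group, with open circles for the first replicate and bars for the mean ± SD (n = 4). CD59 splits by line, CD55 is lower with prednisolone, and the first replicate of CD46 is the lowest of each group.

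Prednisolone was not seen to move CD59. The brightest probe set differed by −0.10 in the cells labelled CASP1 (95% interval −0.53 to 0.33; limma adjusted p = 0.88) and by 0.21 in control cells (95% interval −0.22 to 0.64; adjusted p = 0.66). The interval in the cells labelled CASP1 still allows a ratio between 0.694 and 1.26. Without the first replicate with prednisolone the difference there was 0.13, above 0. None of the 5 probe sets was called in either line by limma, with 1 in each at an unadjusted p under 0.05, where 5.41% of single-gene probe sets were called in the cells labelled CASP1 and 12.5% in control cells. In the cells labelled CASP1 that was 11757306_s_at, which read 4.26, 4.31, 4.54 and 5.07 with prednisolone and 5.07, 5.49, 4.76 and 5.13 untreated. Its difference was −0.57 (adjusted p = 0.062), and the groups overlapped. In control cells it was 11718101_at, the next brightest, at −0.29 (95% interval −0.56 to −0.02; limma adjusted p = 0.18), also with overlapping groups. Its sign there was opposite to that of the brightest probe set.

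CD55 signal fell with prednisolone in control cells. Probe set 11728701_a_at read 7.73, 7.67, 7.62 and 7.65 log2 units with prednisolone, against 8.13, 8.18, 8.10 and 8.18 untreated. The groups did not overlap, and the spread within each was small. The means were 7.67 ± 0.049 with prednisolone and 8.15 ± 0.039 untreated (SD, n = 4 each), so that CD55 was 1.40-fold lower (log2 difference −0.48, 95% interval −0.65 to −0.32; limma adjusted p = 0.00027). CD55 was the 1 member of 3 called, where 8.43% of all genes were called lower, 14.2% in either direction, and 11.8% had groups that did not overlap below. The call held in all 16 alternatives run, with differences between −0.51 and −0.39.

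CD55 also fell with prednisolone in the cells labelled CASP1, with a call that depended on the setting. The same probe set read 7.79, 7.65, 7.61 and 7.54 with prednisolone, against 7.82, 7.88, 7.93 and 8.07 untreated. The groups stood apart by the narrow gap between the first replicate of each. The means were 7.65 ± 0.11 with prednisolone and 7.92 ± 0.11 untreated, a log2 difference of −0.28 (95% interval −0.44 to −0.11; limma adjusted p = 0.045), or 1.21-fold lower. Here 3.35% of all genes were called lower, 6.34% in either direction, and 6.56% had groups that did not overlap below.

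This call ended in 9 of 16 alternatives, in which the difference stayed between −0.29 and −0.23. Leaving out the prednisolone replicate 2, 3 or 4 gave −0.28, −0.26 and −0.24 (adjusted p = 0.069, 0.10 and 0.13), and leaving out the untreated replicate 2, 3 or 4 gave −0.29, −0.27 and −0.23 (adjusted p = 0.072, 0.10 and 0.16). The difference grew to −0.36 (adjusted p = 0.0045) without the first replicate of every group. In the fit over probe sets the same values gave an adjusted p of 0.059. For this probe set the responses of the lines differed by 0.21 (95% interval −0.03 to 0.44, adjusted p = 0.58). That is no called difference, although the interval allows a weaker response in the cells labelled CASP1. Over the 7 CD55 probe sets this difference ran from −0.0073 to 0.39 with a median of 0.07. The highest was that of the dim 11760294_a_at, and 0 of the 7 had an unadjusted p under 0.05.

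Among the 7 probe sets of CD55, 5 were called lower with prednisolone in control cells, where 7.2% of single-gene probe sets were called lower, and differences ran from −0.64 to −0.05. In the cells labelled CASP1, 2 of 7 were called lower, against 2.96% of single-gene probe sets. The largest difference in both was that of 11746180_a_at. It read 7.47, 7.39, 7.42 and 7.52 with prednisolone and 8.11, 8.0, 7.96 and 8.02 untreated in the cells labelled CASP1. In control cells it read 7.59, 7.72, 7.59 and 7.51 with prednisolone and 8.27, 8.23, 8.20 and 8.25 untreated. Treated and untreated arrays stood clearly apart in both lines.

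The differences of 11746180_a_at were −0.58 in the cells labelled CASP1 (adjusted p = 8.5e-05) and −0.64 in control cells (adjusted p = 1.0e-05). The other call in the cells labelled CASP1 was 11755084_x_at, at −0.45 (adjusted p = 0.0061). The dim probe set 11760294_a_at went the other way there, at 0.34, without a call. The call of 11762060_x_at in control cells ended without prednisolone replicate 3 (−0.35, adjusted p = 0.050).

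B-cell precursor markers moved in the same comparisons. With prednisolone 3 of 13 were called lower in the cells labelled CASP1, CD9 at −0.92, MME at −0.84 and DNTT at −0.53, and the median of the list was −0.22, against 0.02 over all genes. In control cells 3 were called lower, CD22 at −0.89, CD9 at −0.53 and IGLL1 at −0.32, and CD24 was called higher at 0.44, with a median of −0.12 against −0.01 over all genes. Between the untreated lines CD22 at −0.72 and VPREB1 at −0.35 were lower and CD24 at 0.40 higher in the cells labelled CASP1, and with prednisolone CD9 at −0.45 and VPREB1 at −0.31 were lower there. Of all genes, 3.35% were called lower with prednisolone in the cells labelled CASP1. In control cells 8.43% were called lower and 5.73% higher. Between the lines 14.1% were called untreated and 16.4% with prednisolone, and the marker counts were not tested against these shares. The calls of IGLL1 and DNTT ended in 5 and 2 of 8 fits that left out 1 array. The part of these shifts in the CD55 differences was not tested.

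Between the lines CD55 was not called. In untreated cells it averaged 7.92 in the cells labelled CASP1 and 8.15 in control cells, a difference of −0.23 (95% interval −0.39 to −0.06; limma adjusted p = 0.067). Those groups did not overlap, but 11.8% of all genes had groups that did not overlap in that direction. The difference was called without untreated replicate 4 of the cells labelled CASP1 (−0.28, adjusted p = 0.036) and when the dimmest 30% of genes were left out (adjusted p = 0.042). With prednisolone the difference was −0.02 (95% interval −0.19 to 0.15; adjusted p = 0.90), and its sign turned in 5 of 16 alternatives. No CD55 probe set was called in either line comparison by limma, with 2 at an unadjusted p under 0.05 in untreated cells and 0 with prednisolone, where 12.1% and 14.7% of single-gene probe sets were called.

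**Figure D2:**
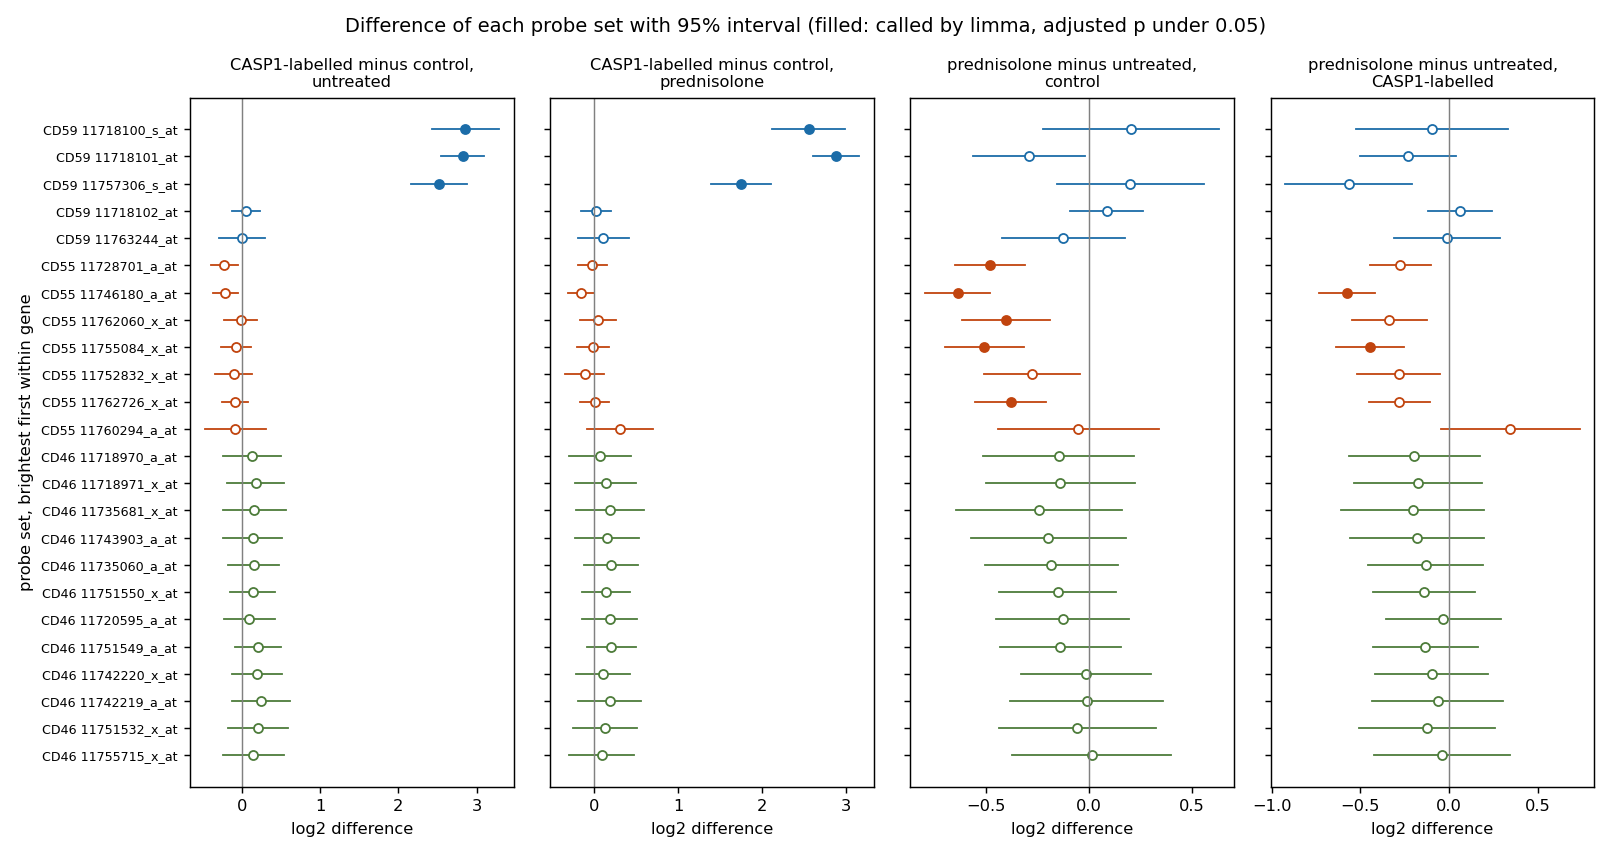
Log2 difference of all 24 probe sets in 4 comparisons, each with its 95% interval, filled where limma called it at an adjusted p under 0.05 over all single-gene probe sets. The line comparisons call 3 CD59 probe sets, prednisolone calls 5 CD55 probe sets in control cells and 2 in the cells labelled CASP1, and no CD46 probe set is called.

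CD46 was not called in any comparison. Probe set 11718970_a_at read 10.01, 10.75, 10.87 and 10.79 log2 units in the cells labelled CASP1 with prednisolone and 10.60, 10.79, 10.90 and 10.91 in those left untreated. In control cells it read 10.18, 10.59, 10.73 and 10.62 with prednisolone and 10.28, 10.73, 10.85 and 10.83 untreated. Every group overlapped with every other.

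Prednisolone gave a difference of −0.20 in the cells labelled CASP1 (95% interval −0.56 to 0.17; limma adjusted p = 0.64) and of −0.15 in control cells (95% interval −0.51 to 0.22; adjusted p = 0.74). The cells labelled CASP1 differed from control cells by 0.13 untreated (95% interval −0.24 to 0.49; adjusted p = 0.75) and by 0.08 with prednisolone (95% interval −0.29 to 0.44; adjusted p = 0.83). These intervals are wide and, for prednisolone in control cells, leave room for a ratio between 0.701 and 1.17. Of the 12 probe sets, 0 were called and 0 had an unadjusted p under 0.05 in any of the 5 comparisons. Their means leaned one way all the same, lying below 0 with prednisolone in 12 of 12 for the cells labelled CASP1 and 11 of 12 for control cells, and above 0 between the lines in 12 of 12 with or without prednisolone. Probe sets of 1 gene share their RNA and are not replicates.

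The widest spread within CD46 lay between replicates. The first replicate was below the mean of the other three in 48 of 48 combinations of probe set and group, by 0.05 to 0.91 log2 units with a median of −0.46, and was the lowest of its group in 47. CD59 had 10 of 20 such values below 0 and CD55 10 of 28. Over all genes, 14.0% were below 0 in all 4 groups, and 1.86% had a mean as low as or lower than the −0.51 of CD46's brightest probe set. Without the first replicate of each group the prednisolone difference was −0.07 in the cells labelled CASP1 and −0.16 in control cells, and the line difference 0.06 untreated and 0.16 with prednisolone, none of them called. Single arrays turned signs too: the prednisolone difference in the cells labelled CASP1 was 0.0015 without their first treated replicate, and the untreated line difference −0.0028 without the first control replicate. The line difference with prednisolone was −0.040 without the first control replicate and −0.012 without replicate 3 of the cells labelled CASP1. What sets the first replicates apart is not in the labels and was not tested.

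**Figure D3:**
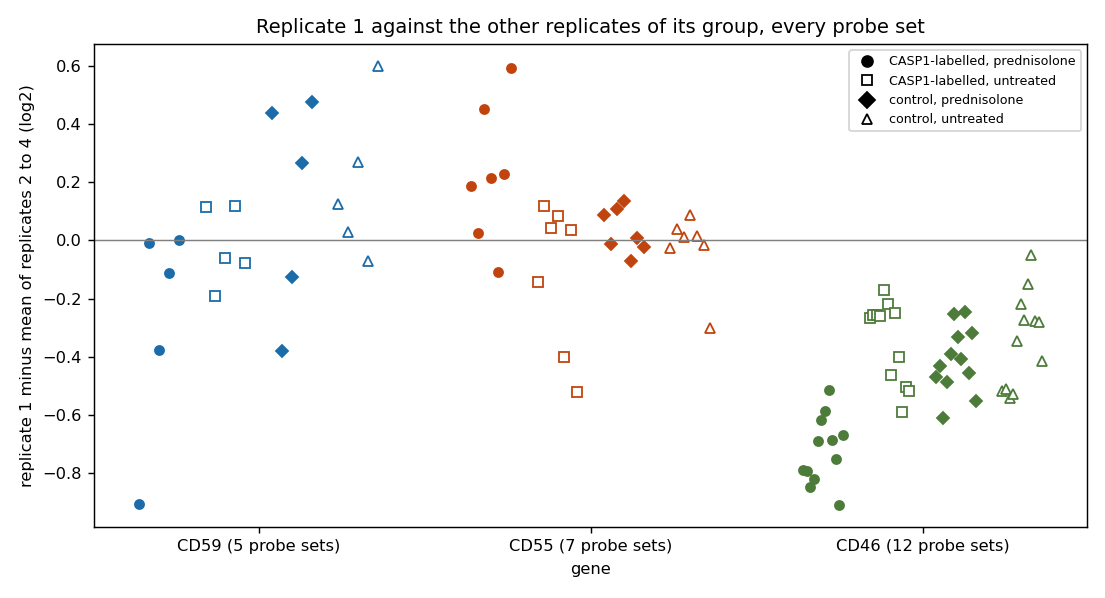
Log2 signal of the first replicate minus the mean of replicates 2 to 4 of its group, for every probe set of CD59 (5), CD55 (7) and CD46 (12), with a symbol for each group. All 48 points of CD46 lie below 0, while those of CD59 and CD55 lie on both sides.

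The difference between the lines in their response to prednisolone was not called for any of the 3 genes. It was −0.30 for CD59 (95% interval −0.91 to 0.30; limma adjusted p = 0.81), 0.21 for CD55 as given above and −0.05 for CD46 (adjusted p = 0.98). Of all genes 0.888% were called, and of single-gene probe sets 0.516%. By their brightest probe sets, none of the 3 had an unadjusted p under 0.05 there. Of the 5 CD59 probe sets 1 did, 11757306_s_at, at −0.77 (95% interval −1.27 to −0.26). Its limma p was 0.0050 unadjusted and 0.22 adjusted, so it was not called. Of the CD55 and CD46 probe sets 0 did.

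The other complement and GPI genes were read from 6 lists, whose counts stand beside the shares of all genes called: 6.34% with prednisolone in the cells labelled CASP1 and 14.2% in control cells, and between the lines 14.1% untreated and 16.4% with prednisolone. The lists are small, and their counts were not tested against these shares. Of 11 measured genes among the other regulators of the complement activation cluster and of membranes, 0 were called with prednisolone in either line, with 0 at an unadjusted p under 0.05. Between the lines, the 1 call was CR1L, a relative of complement receptor 1, at 0.32 in untreated cells, and that call ended in 6 of the 8 fits that left out 1 array. The median differences of this list lay between −0.06 and 0.05 over the 5 comparisons, where those of all genes lay between −0.01 and 0.04.

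The list headed fluid-phase regulators held 9 genes. Of these C1QBP, which encodes a binding protein of the globular C1q head, was called lower in the untreated cells labelled CASP1 (−0.38). Its limma adjusted p stayed under 0.05 in every fit that left out 1 array. Whether C1QBP acts in the fluid phase in these cells was not tested. It was also called lower with prednisolone in control cells (−0.27), a call lost in 7 of 8 such fits. The medians of this list lay between −0.01 and 0.07.

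Among 25 measured complement components, COLEC12, a scavenger receptor of the collectin family, averaged 4.69 ± 0.76 with prednisolone and 3.55 ± 0.52 untreated in the cells labelled CASP1 (1.14 higher, adjusted p = 0.030, a call lost in 6 of 8 fits that left out 1 array). In control cells it averaged 5.52 ± 0.24 with prednisolone and 3.51 ± 0.33 untreated (2.01 higher, adjusted p = 0.00012). C5, the component whose cleavage starts the pore, averaged 4.71 ± 0.13 with prednisolone and 5.74 ± 0.026 untreated in control cells (−1.03, adjusted p = 0.0016). Its level in untreated cells labelled CASP1 was 4.63 ± 0.12, lower than that control value by 1.11 log2 units (adjusted p = 0.0011). C1R was called at −0.41 with prednisolone in control cells, where the list thus had 1 call higher and 2 lower. No component was called between the lines with prednisolone, with 3 at an unadjusted p under 0.05, and the medians of this list lay between −0.04 and 0.09.

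Of 8 measured complement receptors, ITGB2, the beta chain of complement receptors 3 and 4, fell by 1.03 log2 units with prednisolone in control cells (adjusted p = 0.012) as the 1 call of that list. C3AR1, the receptor of C3a, was the 1 call in the cells labelled CASP1, at 0.47. CALR, a chaperone that also binds C1q, was lower in the cells labelled CASP1 with prednisolone, at −0.86, and untreated, at −0.66. The other calls between the lines were ITGAX at 0.36 in untreated cells, and ITGAM at 0.37 and CD93 at 0.32 with prednisolone. Of 8 fits that left out 1 array, the call ended in 7 for ITGAM, in 6 for CD93 and in 6 for CALR in untreated cells. It ended in 3 for C1R and in 2 for C3AR1. The medians of this list lay between −0.02 and 0.22.

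CD59 and CD55 need GPI synthesis to reach the surface, and 37 of 40 listed genes of that pathway were measured. PIGV, a mannosyltransferase of the pathway, averaged 6.37 ± 0.27 with prednisolone and 5.17 ± 0.072 untreated in the cells labelled CASP1 (1.19 higher, limma adjusted p = 2.4e-05). In control cells it averaged 6.49 ± 0.29 with prednisolone and 5.15 ± 0.16 untreated (1.34 higher, adjusted p = 2.3e-06). PIGV was the 1 called gene of the list in the cells labelled CASP1. In control cells 2 were called higher and 2 lower, among them PIGU, a transamidase subunit, at −0.39. ARV1 at −0.30 and MPPE1 at 0.28 lost their calls in 6 and 7 of 8 fits that left out 1 array.

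Between the lines, PIGH, a subunit of the enzyme of the first step, was higher in the cells labelled CASP1 by 1.12 untreated (adjusted p = 0.00057) and by 0.96 with prednisolone (adjusted p = 0.0019). In untreated cells it averaged 3.88 ± 0.36 in the cells labelled CASP1 and 2.76 ± 0.17 in control cells. The list had 1 gene called higher and 2 lower untreated, with PIGM at −0.55 and PGAP2 at −0.47, and 5 higher and 3 lower with prednisolone, led by PIGW at −0.96, where 14.1% and 16.4% of all genes were called. PIGL at 0.56 and PIGB at 0.42 were also called there and lost the call in 4 and 1 of 8 fits that left out 1 array. The list's medians lay between −0.09 and 0.02 over the 5 comparisons.

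All 37 other GPI-anchored leukocyte surface proteins listed were measured. CD52, the target of alemtuzumab, rose with prednisolone to 8.44 ± 0.13 in the cells labelled CASP1, against 5.96 ± 0.21 untreated (2.48 higher, limma adjusted p = 1.0e-05). In control cells it averaged 8.95 ± 0.86 with prednisolone and 6.09 ± 0.11 untreated (2.86 higher, adjusted p = 6.7e-07). CD58, the ligand of CD2, rose by 0.50 in the cells labelled CASP1 and by 0.58 in control cells. PLAUR, the urokinase receptor, fell by 0.44 in the cells labelled CASP1 and by 1.01 in control cells. In control cells VNN2, a pantetheinase, fell by 1.09 and GFRA1, a receptor for glial cell line-derived factor, by 0.94.

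These were among 2 calls higher and 1 lower in the cells labelled CASP1 and 3 higher and 5 lower in control cells. Between the lines, 2 genes were called higher and 2 lower untreated, with GFRA1 at −1.19, VNN1 at 0.93, VNN2 at −0.69 and CD24 at 0.40. With prednisolone 4 were called higher and 4 lower, led by GFRA1 at −0.91, RECK at −0.63, VNN1 at 0.60 and PLAUR at 0.58. The CD59 difference between the lines was larger in size than that of every gene in the 6 lists. Among all 18132 genes that difference ranked number 5 by size in untreated cells and number 11 with prednisolone. Members and lists were chosen with earlier results of these data known, so these ranks are no test. The medians of the GPI-anchored list lay between −0.05 and 0.06, and its calls of VNN2 in untreated cells and of RECK and VNN1 with prednisolone ended in 1 to 7 of 8 fits that left out 1 array.

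**Figure D4:**
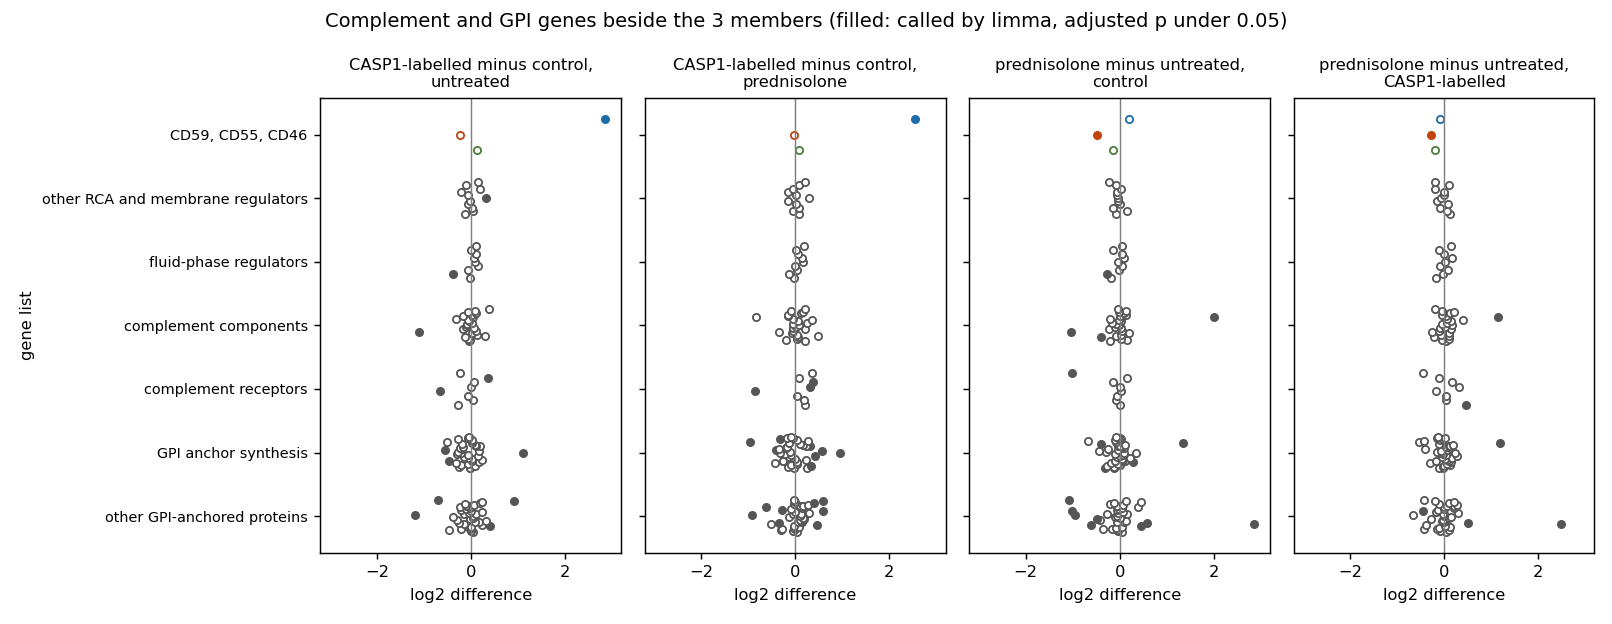
Log2 difference of CD59 (blue), CD55 (orange), CD46 (green) and of the genes of 6 complement and GPI lists in 4 comparisons, filled where limma called the gene at an adjusted p under 0.05. In both line comparisons CD59 lies beyond every listed gene, and with prednisolone CD52 and COLEC12 lie farthest above 0 in control cells.

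The genes whose signal over the 16 arrays was most like that of CD59, by Pearson's r, were PRPS2 (0.981), ARMCX5 (0.977), FCGRT (0.975), KLF10 (0.970) and ZNF256 (0.966). Most of that likeness lay between the lines: within groups the r values of these 5 genes to CD59 ran from −0.08 to 0.58. For CD55 they were DKC1 (0.957), UTP18 (0.952), MTHFD1 (0.951), SOD1 (0.947) and MRPL48 (0.947), with r within groups from 0.37 to 0.81. For CD46 they were CEP192 (0.958), BTAF1 (0.942), TLE4 (0.938), MAML2 (0.932) and ZNF83 (0.932), with r within groups from 0.93 to 0.98. Symbols that start with LOC, LINC or MIR, open reading frame names and antisense names were passed over in each ranking. The arrays share their line, treatment and replicate number, and these values describe them only.

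CD55 and CD46 lie near each other on chromosome 1, with CR2, CR1 and CR1L between them among the measured genes of the RefSeq order. Of the 9 different measured neighbours of these genes, CR1L alone was called, in untreated cells. That call ended in 6 of 8 fits that left out 1 array. CD59 lies on chromosome 11 between KIAA1549L and FBXO3. Its next neighbours KIAA1549L and FBXO3 differed between the untreated lines by 0.04 and −0.25, neither of them called, where CD59 differed by 2.86. Farther out, CSTF3 was lower by 0.98 and LMO2 higher by 0.50 in the untreated cells labelled CASP1. With prednisolone FBXO3 (−0.81), HIPK3 (−0.60) and CSTF3 (−0.60) were called lower in the cells labelled CASP1. Of all genes, 14.1% were called between the untreated lines and 16.4% between the lines with prednisolone.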

How the data were processed

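The members and the gene lists were chosen with earlier results of these data known. The authors deposited log2 values from RMA (background correction, quantile normalization and summary of probes), per the submitters' processing notes; no version is given. RMA puts all arrays on 1 scale, so total RNA per cell was not measured. Of 49395 probe sets, 44988 name 1 gene, 1832 several and 2473 none, beside 102 controls; genes were named from the platform annotation, with 99.94% of Entrez IDs found in RefSeq. The brightest probe set stood for each of 18132 genes, with no filter.

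Group means were fitted with limma 3.58.1 (R 4.3.3) over all 16 arrays, with Benjamini-Hochberg adjustment, at 12 residual and 5.46 prior degrees of freedom. The script was tested on simulated data with independent noise for each array, for prednisolone in control cells alone. Those data lack the shared deviations of same-numbered arrays, so that test does not bear on them. Arrays have no depth; their number limits the precision. Deviations from group means of same-numbered arrays correlated over 0.1 in 15 of 24 pairs, against 22 of 72 pairs of different numbers: in 6 of 6 pairs of number 1 (0.19 to 0.51) but not in every pair of the others. Since not every pair passed and the labels name no shared source, the main model has no block; number 1 arrays deviate together, and values without them are given. No array was left out, and alternatives are given in the closing section.

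Named in the text were the members, CASP1, NR3C1, TSC22D3, FKBP5 and the B-cell markers as checks, up to 4 called genes of largest difference per list and comparison, the 5 genes most like each member, and the nearest 3 measured genes on each side. List genes past 4 calls are counted only, save CD58 in control cells. The 5 most alike were taken after placeholder and non-coding symbols were passed over. Promoters came from RefSeq.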

Additional observations from a re-analysis of the deposited data

Results flagged for a closer look

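In 13 of 96 sets of 4 arrays (24 probe sets in 4 groups) 1 array stood far from the other three by Dixon's test, or 13.5%, where chance gives about 1 in 20; in 9 of the 13 it was the first replicate. The sets share arrays and are not independent.

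For CD46 it was the first replicate each time. With prednisolone in the cells labelled CASP1 it read 10.01 for 11718970_a_at (others 10.75 to 10.87), 6.95 for 11742219_a_at (7.67 to 7.75), 6.75 for 11751532_x_at (7.62 to 7.73) and 5.46 for 11755715_x_at (6.11 to 6.14). In untreated cells labelled CASP1, 11742219_a_at read 7.14 (7.67 to 7.78). In control cells with prednisolone, 11735681_x_at read 8.97 (9.54 to 9.63) and 11755715_x_at 5.45 (5.96 to 6.03).

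For CD59, 11718100_s_at read 6.41 in untreated replicate 2 of the cells labelled CASP1 (6.77 to 6.78) and 3.39 in untreated replicate 3 of control cells (3.92 to 4.01). In control cells with prednisolone, 11757306_s_at read 3.10 in replicate 4 (2.69 to 2.71) and 11763244_at read 2.69 in replicate 1 (2.20 to 2.24). For CD55, 11755084_x_at read 7.64 in prednisolone replicate 1 of the cells labelled CASP1 (7.42 to 7.43), and 11762726_x_at read 6.96 in untreated replicate 3 of those cells (7.09 to 7.10).

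The response to prednisolone differed between the lines for TSC22D3, by 1.09 (limma adjusted p = 0.0071), and for PLAUR, by 0.57 (limma adjusted p = 0.047). With prednisolone TSC22D3 differed between the lines by 0.17 (limma adjusted p = 0.43). Untreated, it was lower in the cells labelled CASP1, at −0.92 (limma adjusted p = 0.00012). The call of PLAUR ended in 15 of 16 fits that left out 1 array. No member's response differed at that threshold.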

How the results depend on the processing

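Of 117 values of the members under other alternatives, 107 kept direction and side of the threshold, as did 127 of 144 with 1 array left out. CD59 between the lines and CD55 with prednisolone in control cells stayed called throughout. CD55 with prednisolone in the cells labelled CASP1 lost its call under a repeated quantile normalization (−0.25), with each array's 75th percentile as its centre (−0.26) or with the compared groups alone in the fit (−0.28), and ran from −0.32 to −0.23 with 1 array left out. CD55 between untreated lines gained a call without the dimmest 30% of genes (−0.23), and ran from −0.28 to −0.19 with 1 array left out. With prednisolone it turned to 0.012, 0.015 and 0.012 when quantile normalized again, centred, or averaged over probe sets (−0.067 to 0.017 with 1 array left out). Without the first replicate of every group, signs turned for CD59 with prednisolone in the cells labelled CASP1 (0.16) and for the line by treatment terms of CD59 (0.030) and CD46 (0.093), none called. With 1 array left out, CD59 with prednisolone in the cells labelled CASP1 ran from −0.22 to 0.13, CD46 there from −0.29 to 0.0015, CD46 between lines from −0.0028 to 0.19 untreated and −0.040 to 0.27 with prednisolone, and its line by treatment term from −0.17 to 0.15. The cause of these turns was not tested.

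With the replicate number as a block, no member's call changed (CD55 with prednisolone in the cells labelled CASP1 −0.28, adjusted p = 0.048; between untreated lines −0.23, adjusted p = 0.070); 8 of 16 arrays correlated best with an array of their own number. The block raised the line by treatment calls to 289 genes, against 161. Without the first replicates they were 727, and 96 to 268 with 1 array left out; calls for prednisolone became 2161 in the cells labelled CASP1, against 1150 (688 with the compared groups alone), and 3969 in control cells, against 2568; between untreated lines 3876, against 2552. Of 522 list counts, 97 moved by more than 1.5 times; 132 of 1098 values of other named genes lost a call.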
